A study of Danio rerio with 2 samples.

Results

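The nuclear-encoded genes of the mitochondrial respiratory chain were examined in dissociated larval zebrafish guts taken 5 days after fertilization. They were taken as every gene whose symbol starts with ndufa, ndufb, ndufc, ndufs, ndufv, uqcr, cox4 to cox8 or atp5, which gave 92 of the 27056 distinct gene symbols in the count tables. Of these, 43 belong to complex I, 8 to complex III, 22 to complex IV and 19 to complex V, with 7 complex I assembly factors among the 43. The 13 protein-coding genes of the mitochondrial genome, whose symbols start with mt-, were set beside them.

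The respiratory chain passes electrons from nutrients to oxygen through complexes I to IV and pumps protons across the inner mitochondrial membrane, and complex V (the ATP synthase) makes ATP from that gradient. Each of complexes I, III, IV and V is built from subunits of both genomes: the mitochondrial genome encodes the hydrophobic core, and nuclear genes encode the other subunits. Several complex IV subunits exist as alternative isoforms that replace each other between tissues, and absorptive enterocytes are known as cells rich in mitochondria that burn much of what they absorb.

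The series holds 1 single-cell library of WT larvae (AB line) and 1 of larvae named il26KO, from a line whose il26 gene, encoding the cytokine interleukin 26, had been targeted by CRISPR/Cas9 in the embryo with a pair of guide RNAs. Each library came from 50 guts, digested in 5 tubes of 10 and pooled before loading, so that differences between larvae, batches and genotypes cannot be told apart and every interval below covers counting error only. il26 itself had 1 unique molecular identifier (UMI, 1 tagged transcript) in the kept WT cells and 0 in the kept il26KO cells, which checks neither label. After filters 5122 WT and 3841 il26KO cells were kept, with a median of 10228.5 and 14204 UMIs per cell, and 9 cell barcodes were found in both libraries. Clustering without the genes under study gave 31 clusters, 30 of which were named for 16 cell classes from marker genes, and 14 classes held at least 20 cells in each library. Levels are UMIs per 1000000 UMIs (CPM), pooled over the cells of a class in a library. In bulk sums of this kind fewer cells of a type and less RNA per cell cannot be told apart, so class values are given beside the sums over all cells.

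Together the 92 genes took 31200 CPM of all kept WT cells and 38469 CPM of all kept il26KO cells, against 50795 and 47988 CPM for the 13 mt- genes. The most abundant members were small peripheral subunits and parts of complex V. They were led by atp5mc3b, a copy of the membrane ring of the ATP synthase, with 2227 CPM (WT) and 2364 CPM (il26KO). Next came atp5f1b, the catalytic beta subunit of the ATP synthase head, at 1212 and 1506 CPM. cox7c, a small subunit of complex IV, held 909.6 and 1279 CPM. The catalytic core of complex I was lower, with ndufs7 as its most abundant member at 172 and 207 CPM, and the 7 assembly factors summed to 117 and 124 CPM. In complex I, ndufb8 of the membrane arm (406.8 and 470.3 CPM), ndufab1b, an acyl carrier protein (171 and 209 CPM), and the assembly factor ndufaf3 (48.9 and 50.2 CPM) were the most abundant of their kinds. In complex III these were, over both libraries together, uqcrq, a small subunit (570.6 and 801.7 CPM, beside 578.9 and 733.8 CPM for uqcrb), and uqcrfs1, the Rieske iron-sulfur protein (226 and 282 CPM). In complex V, atp5l of the membrane part held 842.7 and 1032 CPM. Since a UMI marks 1 captured transcript whatever its length, these levels rank transcripts and not proteins. ndufa9b had only 21 UMIs in the 2 libraries together and is left out of the counts below, which rest on the other 91.

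Anterior enterocyte-like cells carried the highest respiratory chain level and mesenchymal-like cells the lowest. The anterior enterocyte-like class, named from lipid and peptide uptake genes such as fabp2 and slc15a1b, held 46099 CPM of the 92 genes in WT and 53072 CPM in il26KO. The mesenchymal-like class held 8638 and 9032 CPM, which made the span over the 14 classes 5.34-fold in WT and 5.88-fold in il26KO (11.3-fold and 9.36-fold under median-of-ratios scaling). Lysosome-rich enterocyte-like cells, which take up luminal protein, stood at 34224 and 41657 CPM, and epidermal-like cells at 35964 and 41098 CPM. The epidermal-like level came mainly from cluster 0, with 78.3% and 78.2% of the cells of the class, at 37732 and 49659 CPM. Its leading genes include krt91 and icn, but also cldnh and krt92 of the goblet and ileal enterocyte marker lists. A further leading gene, hoxb13a, is on no marker list, and whether cluster 0 is epidermis was not tested. Cluster 21, led by genes that include krt4, held only 13716 and 14553 CPM.

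Below these followed goblet-like cells with 26547 CPM in WT and 28086 CPM in il26KO and ileal enterocyte-like cells with 25252 and 32317 CPM. The other epithelial classes were far lower: progenitor-like cells held 16315 and 15256 CPM, pancreaticobiliary duct-like cells 15902 and 19740 CPM, and best4 enterocyte-like cells, a class of ion-transporting enterocytes, 14451 and 13808 CPM. The epithelial classes of the gut thus covered most of the range. Enteroendocrine-like cells held 13839 and 12747 CPM and neuron-like cells 13374 and 12359 CPM, and the counting intervals of this neighbouring pair overlapped in both libraries. Leukocyte-like cells (12712 and 15701 CPM) and smooth muscle-like cells (12596 and 11046 CPM) overlapped in WT only, and every other pair of neighbours in the order was separated beyond counting error. Skeletal muscle-like cells, of which il26KO had only 18, held 28884 CPM in WT and 27180 CPM in il26KO.

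**Figure D1:**
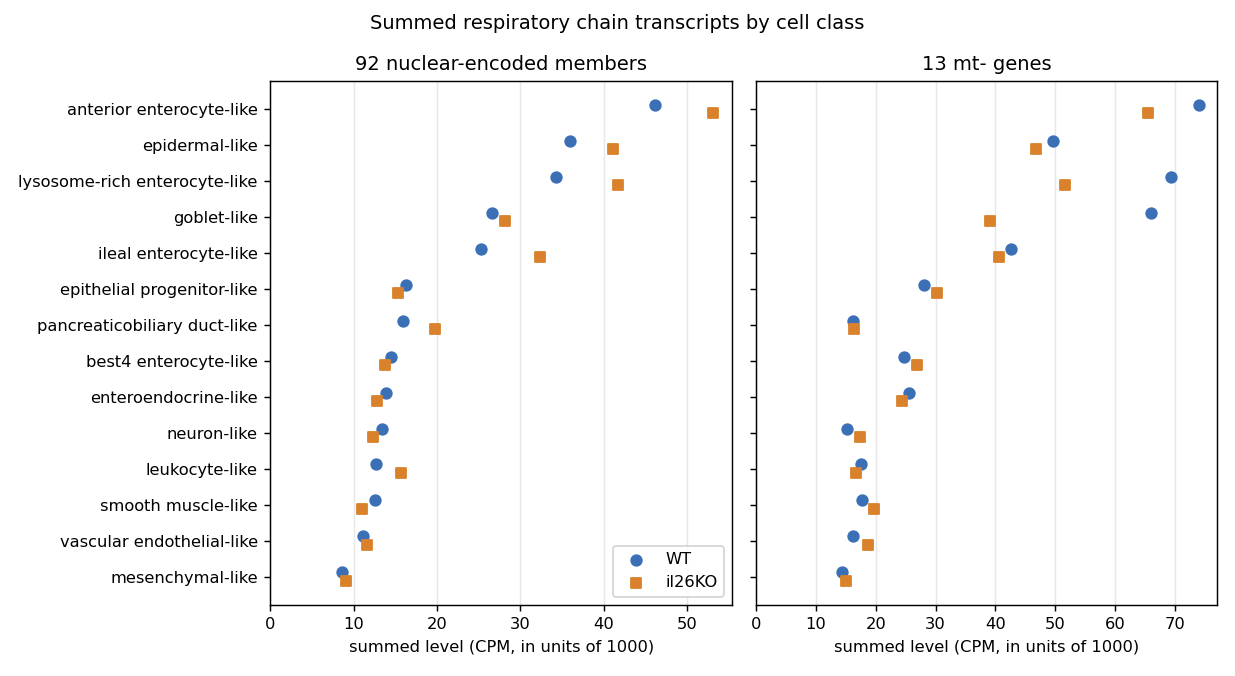
Level of the 92 nuclear-encoded members (left) and of the 13 mt- genes (right), in units of 1000 CPM, summed over the genes and over the cells of each of 14 classes, with 1 point per library (WT circles, il26KO squares) and exact Poisson 95% intervals, mostly narrower than the points. Anterior enterocyte-like cells are highest in both panels for both libraries (46099 and 53072 CPM nuclear), and mesenchymal-like cells have the lowest nuclear level (8638 and 9032 CPM).

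The 14 classes kept nearly the same order in both libraries (Pearson r 0.989, Spearman rho 0.934 over 14 classes, as a description). Nuclear and mt- levels rose together over classes, with r = 0.926 and rho = 0.873 in WT and r = 0.951 and rho = 0.767 in il26KO. The points share their libraries and their denominators, and the nuclear level also went with the median UMIs per cell of a class (r = 0.709 in WT and 0.652 in il26KO, rho 0.332 and 0.565). The part of depth in the order was not tested. Thinning each cell to 1000 UMIs cannot show it, since random draws leave the expected share of a cell unchanged. After thinning, the mean share of the 92 genes was 4.52% ± 1.41 in WT anterior enterocyte-like cells (SD over 854 cells less 10 with fewer than 1000 UMIs). In WT mesenchymal-like cells it was 0.88% ± 0.51 (882 less 9).

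Within the anterior class the single cells spread wider than counting alone gives. The SD of 1.41 percentage points compares with 0.657 expected from drawing 1000 UMIs. Inside this class the correlation of nuclear and mt- shares over cells was weak and negative (r = -0.14 in WT and -0.31 in il26KO), unlike that over classes. Both are shares of the same 1000 UMIs of a cell, so more mt- UMIs leave fewer for the members. The sign therefore cannot show how the genes go together within the class.

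The 4 complexes moved in near proportion. Complex I supplied 21.1% of the members' UMIs in all kept WT cells, complex III 8.19%, complex IV 29.9% and complex V 40.9%, and in il26KO these shares were 20.6%, 8.36%, 29.5% and 41.5%. Over the 14 classes the correlation of any pair of complexes lay between r = 0.954 and 0.997 in either library. The shares still differed between some classes. Complex I made up 27.2% of the members' UMIs in WT and 25.1% in il26KO neuron-like cells, and 17.5% and 18.1% in leukocyte-like cells. Complex V made up 45.6% and 45.9% in epidermal-like cells and 35.9% and 38.2% in goblet-like cells.

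Gene by gene, 83 members had at least 1000 UMIs in each library. Of these, 71 were highest in anterior enterocyte-like cells in WT and 66 in il26KO (64 in both), and 55 in each library were lowest in mesenchymal-like cells. The median member spanned 5.64-fold from its lowest to its highest class in WT and 6.11-fold in il26KO. Counted as at least 2-fold higher than in all other kept cells in both libraries, 33 of 91 members were higher in anterior enterocyte-like cells, where 4.44% of all 21006 genes with 50 or more UMIs were. Only cox4i2, ndufa4l2a and ndufa4l2b were at least 2-fold lower there, as were 48.5% of all genes. In the other direction, 79 of 91 were at least 2-fold lower in mesenchymal-like cells, against 15.7% of all genes. The same held for 74 in vascular endothelial-like cells (3197 of all 21006 genes), 72 in smooth muscle-like cells (16.6% of all genes) and 71 in leukocyte-like cells (26.9%). It held for 64 in enteroendocrine-like cells (12.4%), 54 in best4 enterocyte-like cells (15.0%), 46 in neuron-like cells (8.70%), 34 in duct-like cells (13.6%) and 32 in progenitor-like cells (11.1%). The reference in each case weights cells by their UMIs, and deep cells such as anterior enterocyte-like cells therefore count for more in it.

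Against this common pattern stood a few subunits, most of them isoforms of complex IV, whose classes differed from those of their partners. Subunit 4 is the regulatory subunit of complex IV, and its second isoform is known in mammals from lung, from pericytes and from low oxygen. cox4i1, the usual isoform, held 353 CPM in WT and 343 CPM in il26KO mesenchymal-like cells. There cox4i2 held 66.5 and 64.9 CPM, 18.1 and 18.2 times its level in all other kept cells. Smooth muscle-like cells had cox4i2 at 35.0 and 48.7 CPM, whereas anterior enterocyte-like cells had 0.228 and 0.299 CPM (8 and 13 UMIs). cox4i1l, another gene of the family, ran the opposite way, with 161 and 122 CPM in anterior enterocyte-like cells and 9.17 and 7.80 CPM in mesenchymal-like cells. Mesenchymal-like cells held 58.9% of all cox4i2 UMIs of WT and 46.4% of those of il26KO.

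ndufa4l2a showed a still narrower pattern. The ndufa4 family was named for complex I and is now placed in complex IV, and its member NDUFA4L2 is known in human cells as a gene induced by low oxygen. In mesenchymal-like cells ndufa4l2a held 80.2 CPM in WT and 74.1 CPM in il26KO, and in enteroendocrine-like cells 111 and 44.6 CPM. In 9 other classes it had at most 8 UMIs in each library, although in the few neuron-like cells 8 and 5 UMIs came to 25.5 and 9.58 CPM. Goblet-like cells had 0 in both, which allows up to 3 UMIs per library.

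Most of that signal came from 2 of the 31 clusters. In mesenchymal-like cluster 11, ndufa4l2a reached 358 CPM in WT (582 UMIs) and 319 CPM in il26KO (301 UMIs). The other 4 mesenchymal-like clusters held between 0 and 22.7 CPM of it. The leading genes of cluster 11 include rgs5a and pdgfrb, both known from pericytes, but also sparc, serpinh1b and col6a1, which lead clusters 10 and 19 too. Cluster 19 is also led by rgs5a, but had only 2 ndufa4l2a UMIs in WT and 20 in il26KO. Whether cluster 11 is made of pericytes was not tested. cox4i2 was also highest in cluster 11, at 167 and 147 CPM, but was present in all 5 mesenchymal-like clusters, the lowest being cluster 14 with 10.5 and 14.4 CPM. Among enteroendocrine-like cells, cluster 17, led by genes that include the hormone genes ccka and insl5a, held ndufa4l2a at 157 and 52.8 CPM, and cluster 24 had 0 and 1 UMI. The signal was also concentrated in few cells: 146 WT cells and 68 il26KO cells carried any ndufa4l2a UMI, and the 5 highest cells of each library held 25.7% and 29.7% of its UMIs.

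Its sister ndufa4l2b was sparse throughout, with 95 WT and 97 il26KO UMIs in all. Its highest level was in neuron-like cells (12.7 and 7.66 CPM from 4 UMIs in each library), followed in WT by vascular endothelial-like cells (6.23 CPM, 23 UMIs).

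The older members of the same family divided the tissue in another way. ndufa4 held 364 CPM in WT and 415 CPM in il26KO anterior enterocyte-like cells and 295 and 354 CPM in lysosome-rich enterocyte-like cells. In mesenchymal-like cells ndufa4 held 7.26 and 8.03 CPM, of which free RNA, as judged from empty droplets, would give 43.1% and 42.7%. In duct-like cells it held 6.32 and 5.03 CPM (19.8% and 20.3% expected as free RNA), and in neuron-like cells 2 and 3 UMIs. ndufa4l was instead found in every class, from 230 and 228 CPM in mesenchymal-like cells to 820 and 911 CPM in lysosome-rich enterocyte-like cells. Goblet-like cells, which secrete mucus, held ndufa4 at 219 and 157 CPM, of which 0.708% and 1.41% would be expected as free RNA, and ileal enterocyte-like cells held 209 and 264 CPM. In best4 enterocyte-like cells ndufa4 held 110 CPM in WT and 148 CPM in il26KO, from 179 and 265 UMIs. Of these UMIs, 3.75 and 3.71 would be expected as free RNA. ndufa4 was thus high in absorptive and goblet-like cells, but not in these alone. The best4 enterocyte-like level was below the goblet-like one in WT and close to it in il26KO. The goblet-like class was cluster 12, whose leading genes include agr2 and sytl2b but also ctsl.1 and fabp6. The last pair are on the marker lists of lysosome-rich and ileal enterocytes, and whether enterocyte transcripts add to the goblet-like values was not tested.

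Among the paired isoforms of the small complex IV subunits, one copy was broader across classes than the other. cox6b1 fell from 972 CPM in WT and 1144 CPM in il26KO anterior enterocyte-like cells to 26.4 and 27.7 CPM in mesenchymal-like cells, a span of 36.8-fold and 41.2-fold. cox6b2, whose mammalian counterpart is known from testis, held 524 and 577 CPM in the first class and 443 and 424 CPM in the second. cox8b spanned 21.8-fold and 30.4-fold between the same classes (865 and 998 CPM against 39.7 and 32.8 CPM). In mesenchymal-like cells free RNA would give 32.6% and 36.0% of the cox6b1 UMIs and 22.2% and 29.3% of the cox8b UMIs. cox8a had the flattest profile of the 83 abundant members, at 2.62-fold in WT and 2.96-fold in il26KO, with its highest level in epidermal-like cells (597 and 657 CPM). cox7a2a, a subunit 7 isoform, was 2.77-fold and 2.64-fold higher in anterior enterocyte-like cells than elsewhere, at 864 and 1099 CPM.

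cox6a2 and cox7a1 are known in mammals as the heart and skeletal muscle isoforms of their subunits. Here cox6a2 was highest in lysosome-rich enterocyte-like cells (204 and 226 CPM in the WT and il26KO libraries) and was near absent in smooth muscle-like cells, with 3 UMIs in each library. In skeletal muscle-like cells cox6a2 held 22.5 and 20.8 CPM. cox7a1 likewise had its highest level in lysosome-rich enterocyte-like cells, at 451 and 437 CPM, with 113 and 112 CPM in smooth muscle-like cells, 49.9 and 63.4 CPM in skeletal muscle-like cells and 38 and 69 UMIs in leukocyte-like cells. In goblet-like cells, with the same limit as for ndufa4, cox6a2 stood at 171 and 141 CPM and cox7a1 at 351 and 218 CPM. The broad partner cox6a1 held 1514 and 1749 CPM in anterior enterocyte-like cells and 299 and 221 CPM in smooth muscle-like cells. cox5b2 was rare, with 391 and 370 UMIs in all, and 69.8% and 81.1% of them lay in anterior enterocyte-like cells.

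**Figure D2:**
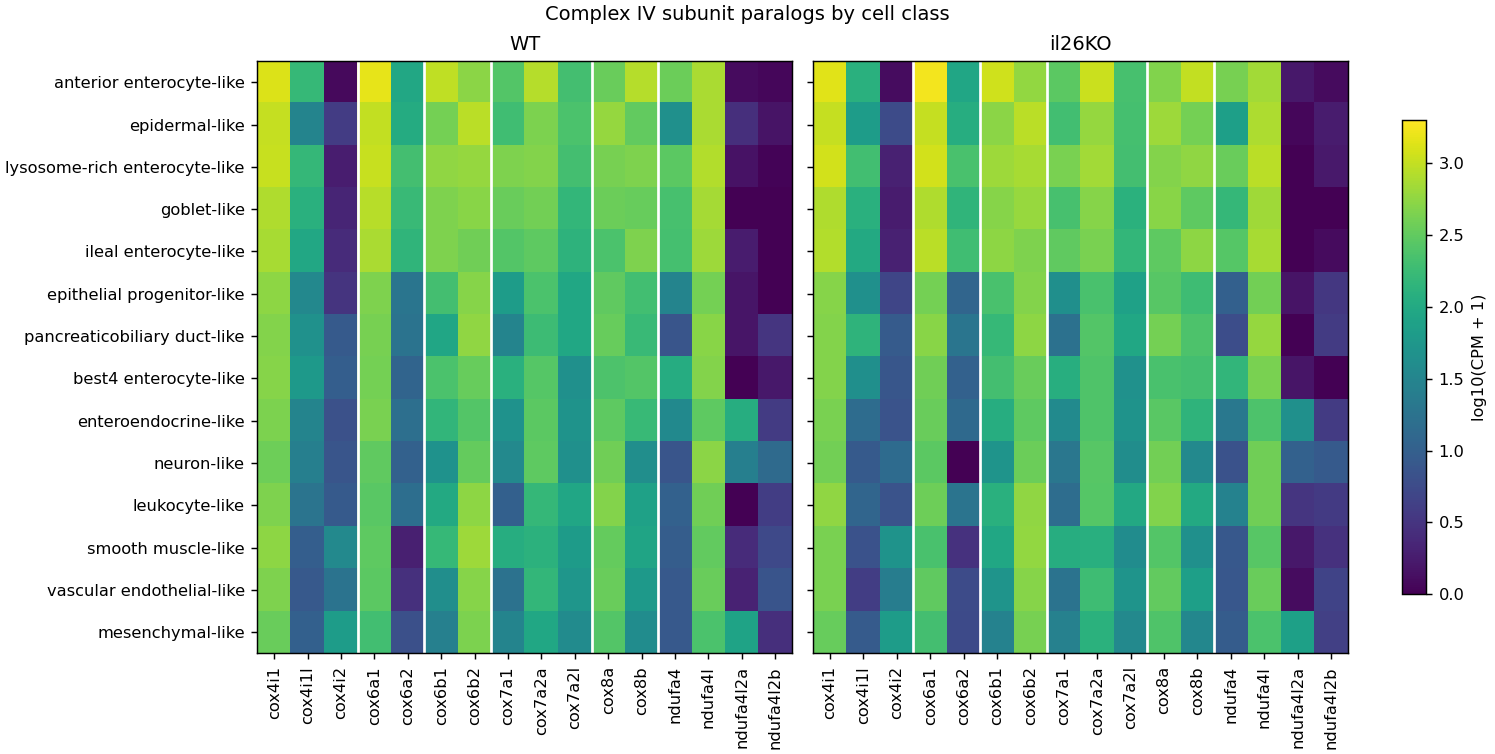
Level of 16 complex IV subunit genes in 14 cell classes as log10(CPM + 1), WT on the left and il26KO on the right, with white lines between families. The cox4i2 column is brightest in mesenchymal-like cells (66.5 CPM in WT) and nearly dark in the anterior enterocyte-like row, while cox6b1, cox8b and ndufa4 run the other way, from bright in that row to darker in mesenchymal-like cells.

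The comparison of il26KO with WT asks how the transcripts of each gene differed between the pooled libraries. Over all kept cells the summed level of the 92 genes was higher in il26KO by 0.30 on the log2 scale (95% counting interval 0.30 to 0.30), and that of the mt- genes was lower by a log2 ratio of -0.08 (-0.08 to -0.08). The 4 complexes were close to each other, with log2 ratios of 0.27 for complex I, 0.33 for complex III, 0.28 for complex IV and 0.33 for complex V. Of 91 members, 79 were higher beyond counting error, where 29.8% of all genes were, and 6 were lower, where 25.2% of all genes were. The median log2 ratio of the members was 0.29, against 0.03 over all 21006 genes. Anterior enterocyte-like cells, the highest class, were 854 of the 5122 kept WT cells and 836 of the 3841 kept il26KO cells. Mesenchymal-like cells, the lowest class, were 882 and 443. The all-cell values mix the classes in these proportions, and the part of cell mix was not tested beyond the class values below.

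The size of the difference per gene was small. At least 1.5-fold higher were 4 members, where 8.46% of all genes were, and at least 1.5-fold lower were 2, where 7.67% were, both shares above those of the members. The 4 were atp5md (483.5 to 769.9 CPM), a small membrane subunit of the ATP synthase, ndufb11 (76.6 to 122 CPM) and ndufa3 (234.7 to 354.8 CPM), both accessory subunits of the membrane arm of complex I, and atp5mc1 (780.6 to 1184 CPM), another copy of the membrane ring. ndufa3 was named after its value was seen. The 2 lower members were ndufb2 and ndufa4l2a.

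The classes did not move together. Of the 14 classes, 9 had a higher nuclear sum in il26KO and 5 a lower one, all beyond counting error, and the median log2 ratio over classes was 0.07. The highest was in ileal enterocyte-like cells, at 0.36 (0.34 to 0.37), followed by duct-like cells at 0.31 (0.29 to 0.33), leukocyte-like cells at 0.30 (0.29 to 0.32), lysosome-rich enterocyte-like cells at 0.28 (0.28 to 0.29) and anterior enterocyte-like cells at 0.20 (0.20 to 0.21). The median UMIs per cell were 6840 in WT and 14822.5 in il26KO ileal enterocyte-like cells, and 13203 and 26628 in duct-like cells. Epidermal-like cells, also higher in il26KO, had 17146 and 13323, and best4 enterocyte-like cells, lower in il26KO, had 10658 and 16779. The part of depth in these ratios was not tested. The lower classes were smooth muscle-like cells at -0.19 (-0.21 to -0.16), enteroendocrine-like cells at -0.12, neuron-like cells at -0.11, progenitor-like cells at -0.10 and best4 enterocyte-like cells at -0.07. Under other scalings or cell filters the sign changed in goblet-like cells (0.08 here, -0.12 at the lowest), mesenchymal-like cells (0.06, -0.03), enteroendocrine-like cells (0.05 at the highest), progenitor-like cells (0.07) and neuron-like cells (0.23). Without a change of sign, the ratio of anterior enterocyte-like cells was 0.03 under median-of-ratios scaling, and the lowest values were 0.14 in duct-like cells (equal weights), 0.20 in leukocyte-like cells (at least 300 genes) and 0.10 in epidermal-like cells (median-of-ratios, 0.19 here). Smooth muscle-like cells ran to -0.34 under that scaling. With 1 library per genotype no test of these differences was possible.

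The members were then read against the other genes of the same class. The shares beyond counting error in this and the next paragraph were again not matched for abundance. In ileal enterocyte-like cells the median member had a log2 ratio of 0.38 against 0.08 for all genes, and 72 of 84 measured members were higher beyond counting error, where 20.6% of all genes were. In lysosome-rich enterocyte-like cells the medians were 0.28 and 0.06, with 76 of 87 members higher (25.8% of all genes). In leukocyte-like cells they were 0.34 and -0.01, with 62 of 84 higher (17.4%). In duct-like cells they were 0.31 and 0.10 with 58 of 82 higher (18.7%), and in epidermal-like cells 0.25 and 0.06 with 65 of 88 higher (24.6%). In anterior enterocyte-like cells the median member, at 0.19, was close to the median gene, at 0.18, although 68 of 88 members were higher beyond counting error where 41.9% of all genes were. That class held the same clusters in different shares, with cluster 2 the most numerous in WT (352 of 854 cells) and cluster 3 in il26KO (350 of 836 cells). Within its clusters 2, 3 and 5 the log2 ratio of the nuclear sum was 0.14, 0.19 and 0.25. The epidermal-like class joined 2 unlike clusters: cluster 0 (340 and 291 cells) held 37732 and 49659 CPM of the members, a ratio of 0.40, and cluster 21 (94 and 81 cells) held 13716 and 14553 CPM, a ratio of 0.09.

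In smooth muscle-like cells the median member had a log2 ratio of -0.15 against 0.09 for all genes. Of 80 measured members, 62 lay below 0 and 18 above, and 21 were lower beyond counting error, where 10.2% of all genes were. In enteroendocrine-like cells 19 of 81 members were lower by that measure (15.3% of all genes), and in progenitor-like cells 17 of 84 (8.59%). Goblet-like cells, whose nuclear sum changed sign between settings, had 21 of 81 members higher beyond counting error (21.9% of all genes).

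**Figure D3:**
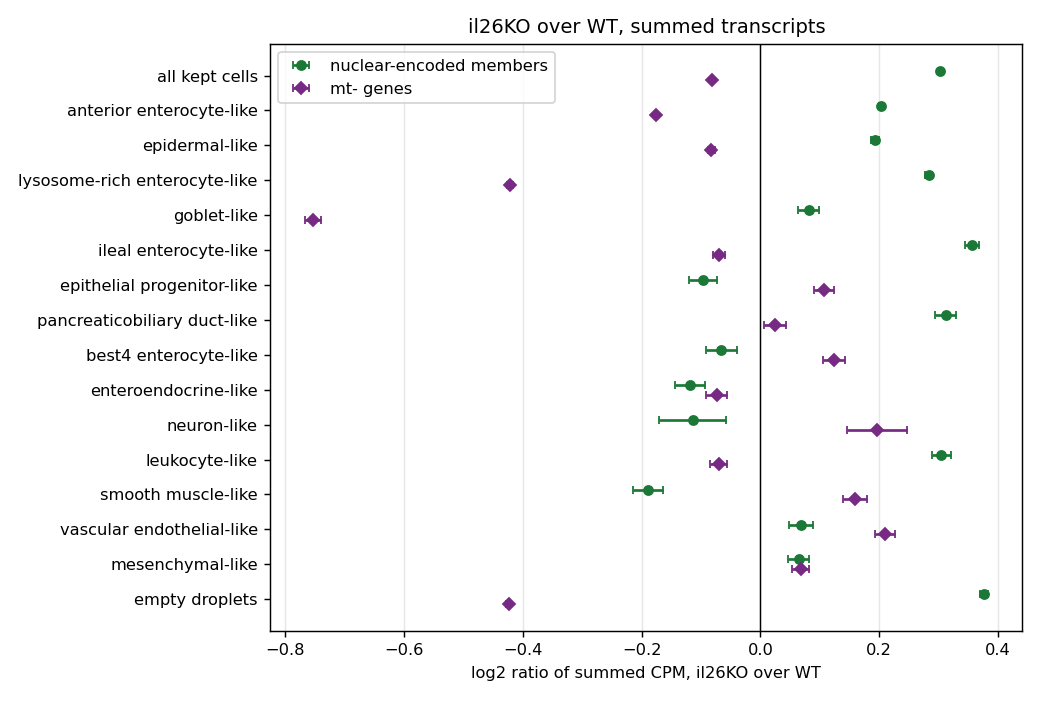
Log2 ratio of il26KO over WT of the CPM summed over the 92 nuclear-encoded members (circles) and over the 13 mt- genes (diamonds), for all kept cells, 14 classes and the empty droplets, with exact conditional binomial 95% intervals that cover counting error only. The nuclear sum lies to the right of 0 in 9 classes, up to 0.36 in ileal enterocyte-like cells, while the mt- sum reaches -0.75 in goblet-like cells and -0.42 in lysosome-rich enterocyte-like cells.

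Droplets without a cell also differed between the libraries. In barcodes of 100 to 300 UMIs the members held 26128 CPM in WT and 33915 CPM in il26KO (log2 ratio 0.38), and the mt- genes 80372 and 59912 CPM (-0.42). Such free RNA was expected to give 0.847% of the UMIs of the kept WT cells, and with it subtracted the nuclear sum of all kept cells still had a log2 ratio of 0.30. The same subtraction changed the sign of the nuclear ratio in none of the 14 classes.

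One subunit stood far from the others. ndufb2, an accessory subunit of the membrane arm of complex I, held 197 CPM in WT and 49.9 CPM in il26KO over all kept cells, a log2 ratio of -1.98 (-2.03 to -1.94), and a UMI of it was found in 3045 of 5122 WT cells and in 1657 of 3841 il26KO cells. It was lower in 14 of 14 classes, with a median log2 ratio of -1.75 and a range from -2.34 to -1.10. In anterior enterocyte-like cells ndufb2 was at 273 and 59.6 CPM (9578 and 2593 UMIs), in lysosome-rich enterocyte-like cells at 255 and 57.0 CPM and in goblet-like cells at 208 and 40.3 CPM. In leukocyte-like cells it was 77.4 against 34.2 CPM, and in mesenchymal-like cells 67.2 and 31.2 CPM, the smallest difference. Skeletal muscle-like cells showed 243 and 81.3 CPM. The empty droplets had it too, at 138.9 and 42.0 CPM.

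The ndufb2 difference was therefore seen in all 14 classes compared, stromal and blood cells included. Of 9534 genes measured in at least 10 classes, 5 were at least 2-fold lower in il26KO in every class measured, and ndufb2 was the only member among the 85 so measured. Its partners in the same arm of the complex did not share it: ndufb8, the most abundant supernumerary subunit of complex I, held 406.8 and 470.3 CPM, ndufb10 238 and 286 CPM, and ndufb11 was higher in il26KO. The sum of complex I without ndufb2 had a log2 ratio of 0.30. The counts report captured 3′ ends of transcripts, and protein was not measured.

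**Figure D4:**
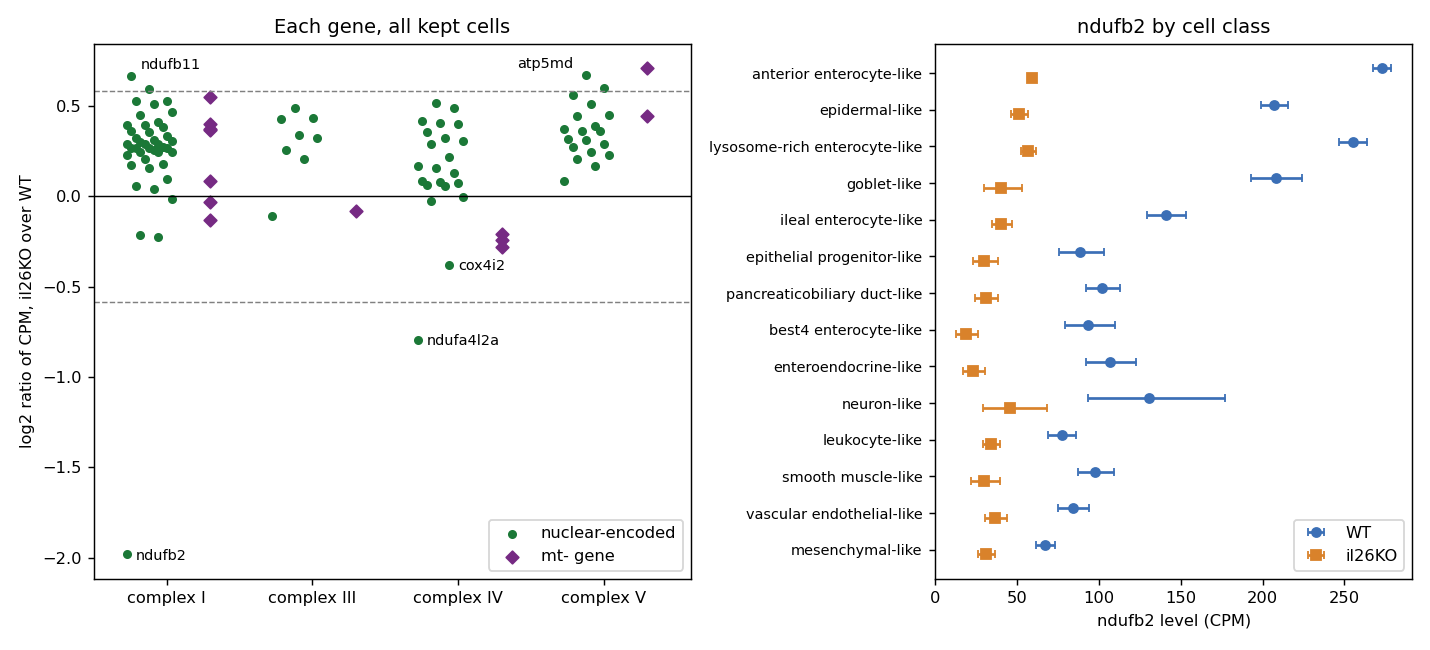
Left, log2 ratio of il26KO over WT over all kept cells for each of 91 nuclear-encoded members (circles) and 13 mt- genes (diamonds) by complex, with dashed lines at 1.5-fold; right, level of ndufb2 in CPM in 14 classes of WT (circles) and il26KO (squares) with exact Poisson 95% intervals. ndufb2 lies at -1.98, far below every other member, and its WT and il26KO intervals do not overlap in any class.

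The other members with the widest differences were less uniform. ndufa4l2a took 8.51 CPM of WT and 4.90 CPM of il26KO over all cells (log2 ratio -0.79), from 849 and 471 UMIs. Mesenchymal-like cells, 882 in WT and 443 in il26KO, gave 586 and 323 of these UMIs at a log2 ratio of -0.11. Enteroendocrine-like cells gave 201 and 98 at a ratio of -1.31, and epidermal-like cells 22 and 1. cox4i2 had a log2 ratio of -0.38 over all cells and -0.03 in mesenchymal-like cells. In contrast, atp5md was higher beyond counting error in 12 of 14 classes, with a median log2 ratio of 0.45. ndufb11 was higher in 8 beyond counting error (median 0.53). ndufaf4, a complex I assembly factor, was above 0 in 10 of 10 classes with at least 20 UMIs (median 0.52), but only in 2 of them beyond counting error, from 746 and 877 UMIs in all. The rule that named ndufaf4 required the same sign in all such classes.

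Some differences were widest in single classes, and ndufv3, uqcrc2b and ndufaf5 are named here after their values were seen. cox4i1l was higher in il26KO duct-like cells (45.9 and 140 CPM, log2 ratio 1.60) and epidermal-like cells (29.8 and 65.8 CPM, 1.14). It was lower in anterior enterocyte-like cells (161 and 122 CPM, -0.40), leukocyte-like cells (-0.67) and enteroendocrine-like cells (-1.11). Over the 13 classes with at least 20 UMIs, cox4i1l was lower beyond counting error in 5 and higher in 3 (median -0.21). In leukocyte-like cells, where 11.3% of all genes were past 1.5-fold higher, a close share of the members was, 11 of 84 (13.1%). Among them ndufv3, an accessory subunit of the electron input arm of complex I, had a log2 ratio of 1.26, and ndufa4 took 9.61 and 27.8 CPM of the WT and il26KO class (39 and 137 UMIs). By cluster ndufa4 held 9.35 and 21.2 CPM in cluster 13 and 10.2 and 36.9 CPM in cluster 22. In cluster 22 cox8b (14.9 and 89.8 CPM) and cox6b1 (52.4 and 141 CPM) were higher too. In cluster 13 cox8b held 105 and 107 CPM and cox6b1 122 and 111 CPM. Whether enterocyte transcripts add to these values was not tested. In ileal enterocyte-like cells the 7 members past 1.5-fold higher were atp5mc1 (0.80), ndufb11 (0.79), uqcrc1 (0.72), a core protein of complex III, uqcrc2b (0.66), atp5md (0.63), ndufa3 (0.59) and ndufaf5 (1.02). They were 8.33% of the 84 measured members, a smaller share than the 11.3% of all genes past it.

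Pairs of ATP synthase genes did not differ alike. Of the membrane ring genes, atp5mc3a (302.9 and 446.6 CPM, log2 ratio 0.56) and atp5mc1 (0.60) were above atp5mc3b (0.09). In mammals the copies are known to encode the same mature protein. The inhibitory factor genes atp5if1a (325.1 and 418 CPM, 0.36) and atp5if1b (371.7 and 463.8 CPM, 0.32), which encode the protein that blocks ATP breakdown by the synthase, were close to the complex V sum.

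The mt- genes gave other values than the nuclear members in this comparison, and the sign of their all-cell sum depended on the weight of cells (0.04 with cells weighted equally). Their sum by class was lower in 7 classes and higher in 7, from -0.75 (-0.77 to -0.74) in goblet-like cells, where it was 65878 CPM in WT and 39085 CPM in il26KO, and -0.42 in lysosome-rich enterocyte-like cells to 0.20 in neuron-like cells and 0.21 in vascular endothelial-like cells. Under the alternatives the goblet-like value ran from -0.91 (median-of-ratios scaling) to -0.44 (at most 10% mt- UMIs, or libraries merged without integration), the lysosome-rich one from -0.48 to -0.21 (at most 10% mt- UMIs) and the neuron-like one from 0.02 (thinned) to 0.54 (median-of-ratios). The ratio of nuclear to mt- UMIs was 0.614 in WT and 0.802 in il26KO over all kept cells. Beyond counting error it was higher in the il26KO library in 7 of 14 classes and lower in 6. In lysosome-rich enterocyte-like cells it was 0.494 and 0.806, and in smooth muscle-like cells 0.712 and 0.559.

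The mt- transcripts also differed among themselves. The ATP synthase gene mt-atp6 took 5857 CPM of WT and 7982 CPM of il26KO (log2 ratio 0.45), and mt-nd4 and mt-nd5 of complex I had ratios of 0.37 and 0.40, whereas the complex IV genes mt-co1, mt-co2 and mt-co3 had ratios of -0.24, -0.21 and -0.28 and mt-cyb of complex III -0.08. The complex I genes were not alike. Their median log2 ratio over classes was -0.05 for mt-nd1 and -0.06 for mt-nd2, each below 0 in 8 of 14 classes. It was 0.28 for mt-nd4, 0.13 for mt-nd5, 0.08 for mt-nd3, 0.32 for mt-nd4l and 0.23 for mt-nd6. For each UMI of the 3 mt-co genes there were 0.177 UMIs of mt-atp6 and mt-atp8 in WT and 0.285 in il26KO, a log2 difference of 0.69. Beyond counting error this ratio was above WT in 10 of 14 classes and below in 0. It differed most in duct-like (0.84), anterior enterocyte-like (0.81) and ileal enterocyte-like cells (0.79), and in best4 enterocyte-like, progenitor-like, smooth muscle-like and vascular endothelial-like cells its interval held 0. In empty droplets it was 0.172 and 0.239 (0.47). The nuclear subunits of complexes V and IV had log2 ratios of 0.33 and 0.28.

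**Figure D5:**
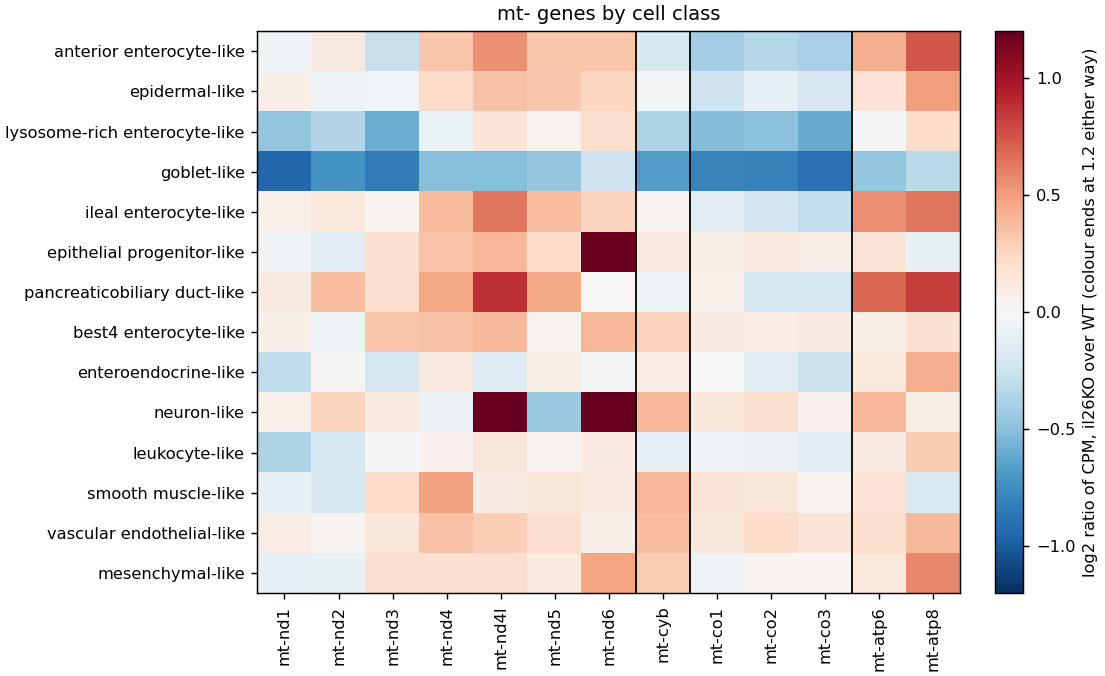
Log2 ratio of il26KO over WT for each of the 13 mt- genes (columns, with lines between complexes) in 14 cell classes (rows), red for higher and blue for lower in il26KO. In the anterior and ileal enterocyte-like rows the mt-co columns are blue while mt-atp6, mt-atp8 and mt-nd4l are red, and the goblet-like row is blue in all 13 columns.

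Cells removed for more than 25% mt- UMIs numbered 309 in WT and 300 in il26KO. In them the members took 34122 CPM of the UMIs other than mt- in WT and 34218 CPM in il26KO, against 32870 and 40408 CPM in the kept cells.

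Other genes of energy metabolism were counted in the same way over all kept cells. Of 18 fatty acid oxidation genes measured, 15 were higher in il26KO and 1 lower beyond counting error, with a median log2 ratio of 0.33. The gene of most UMIs in this list was acadm. Only 2 of the 18 were past 1.5-fold higher. Among them was decr1, an auxiliary enzyme for unsaturated fatty acids, with 26.6 CPM of WT and 53.8 CPM of il26KO, not typical of the list. Of 16 citric acid cycle genes 15 were higher and 1 lower (median 0.28), and of 4 measured complex II genes 4 were higher (0.25). By class, the fatty acid oxidation sum ran from a log2 ratio of -0.16 (-0.42 to 0.11) in neuron-like cells to 0.47 in duct-like cells. Neuron-like cells were the only class below 0, but the interval also held 0 in best4 enterocyte-like, enteroendocrine-like, progenitor-like and goblet-like cells. The other lists just named differed in sign between classes. The log2 ratio of the citric acid cycle sum ran from -0.23 in smooth muscle-like cells to 0.32 in duct-like cells. That of the complex II sum ran from -0.31 in progenitor-like cells to 0.41 in leukocyte-like cells. Of 18 cytochrome oxidase assembly genes 16 were higher and 0 lower (0.24). Of 6 electron carrier and cytochrome c1 genes 4 were higher and 2 lower (0.19), with cycsb, a cytochrome c, the most abundant at 273 and 344 CPM. Of 10 assembly genes of complexes III and V, led by uqcc3 (45.4 and 43.1 CPM), 4 were higher and 2 lower (0.09). Of 6 genes of adenine nucleotide and phosphate carriers 2 were higher and 2 lower (0.03), with the carrier slc25a5 at 5440 and 4895 CPM and the outer membrane channel vdac1 at 79.8 and 49.0 CPM. Of 32 glycolysis genes 15 were higher and 8 lower (0.13). Of 13 regulators of mitochondrial genes 3 were higher and 4 lower (median -0.01). Of 5 uncoupling protein genes 1 was higher and 3 lower (-0.13), with ucp3 at 22.3 and 10.4 CPM. The median over all genes was 0.03, and 29.8% of all genes were higher and 25.2% lower by the same measure. These shares were not matched to the lists for abundance.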

How the data were processed

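UMI counts per gene and barcode were deposited by the authors for each library, unfiltered. The headers of the files name Cell Ranger 7.1.0 as the counting tool, the processing notes name danRer11, and the annotation release is not given in the sources used here. The libraries held 125236138 (WT) and 122200924 (il26KO) UMIs. Barcodes with at least 500 genes and at most 25% mt- UMIs were kept. The highest scrublet doublet scores (scanpy 1.11.5) were removed at 0.8% per 1000 cells (229 and 126 cells), since the automatic cut called only 1 and 2. Cells were integrated and clustered with Seurat 5.3.0 (2000 variable genes without the members, mt- genes, listed mitochondrial genes and cell cycle genes, 30 dimensions, resolution 0.8), and clusters were named from 18 marker lists. These names are rebuilt and may differ from those of the study.

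UMIs were summed per class and library and divided by all UMIs. Level intervals are exact Poisson. Log2 ratios of il26KO over WT, with a pseudocount of 1 UMI for single genes, have exact conditional binomial (Clopper-Pearson) 95% intervals. With 1 library per group there is no test between groups, and no p-value is given. "Beyond counting error" means an interval without 0. Genes with more UMIs pass it at smaller differences, and the shares of all genes given beside it are not matched for abundance. Genes with at least 50 UMIs over both libraries were counted as measured. Empty droplets were barcodes of 100 to 300 UMIs. On simulated counts for all kept cells (20986 genes) 99.5% of changed genes passed 1.5-fold and 1.06% of unchanged ones did. For ileal enterocyte-like cells (7001 genes) 97.8% and 3.61% did. Every planted change was larger than the 1.5-fold cut, and these shares concern that cut only. Most members differed by less than that, and how well such smaller differences are recovered was not tested. Variation between libraries was not tested either, with 1 library per group.

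Members and lists were chosen with earlier results of these data known. Members named with values were the most abundant of each complex and role, the 3 lowest and 3 highest log2 ratios over all kept cells, the lowest and highest class medians of members that had 20 or more UMIs in 5 or more classes, each with the same sign (ndufb2 and ndufaf4), the 10 with the largest class folds, and paralog pairs; others are said to be named after their values were seen or illustrate a list. Alternatives covered scaling, denominators, cell weights, thinning, cell filters, doublets, integration, resolution and free RNA.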

Additional observations from a re-analysis of the deposited data

Results flagged for a closer look

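The il26KO against WT difference of the nuclear sum had opposite signs in different cell classes. Its log2 ratio was 0.36 in ileal enterocyte-like cells and -0.19 in smooth muscle-like cells, the ends of the range over 14 classes. For the mt- sum the ends were 0.21 in vascular endothelial-like cells and -0.75 in goblet-like cells. With 1 library per genotype the difference between classes was not tested.

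Empty droplets, which no comparison between cell classes uses, also differed between the libraries, with a log2 ratio of 0.38 for the nuclear sum and -0.42 for the mt- sum. Their part in the class values was examined only by subtracting the expected free RNA.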

How the results depend on the processing

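No paired analysis was possible because each genotype has 1 library. The nuclear sum of all kept cells, 0.30, stayed above 0 under all 13 alternatives, and so did the sums of the 4 complexes and the median over classes (0.02 to 0.13). Values are log2 ratios unless given as folds or counts. Median-of-ratios scaling gave 0.27 for the nuclear sum, 0.24, 0.30, 0.26 and 0.30 for complexes I, III, IV and V and -0.11 for the mt- sum. Without the 50 most abundant genes in the denominator these were 0.29, 0.26, 0.32, 0.27, 0.31 and -0.094. With cells weighted equally they were 0.32, 0.28, 0.35, 0.30, 0.36 and 0.036. With cells thinned to 1000 UMIs they were 0.32 for the nuclear sum, 0.27, 0.35 and 0.35 for complexes I, III and V and 0.054 for the mt- sum. With at most 10% mt- UMIs they were 0.32, 0.29, 0.35, 0.31, 0.34 and -0.031. Without mt- genes in the denominator the nuclear, complex IV, complex V and mt- values were 0.30, 0.28, 0.32 and -0.086, and with a minimum of 300 genes 0.31, 0.29, 0.33 and -0.074. With doublets kept the nuclear, complex V and mt- values were 0.31, 0.33 and -0.065. The mt- sum was -0.078 with no mitochondrial filter and -0.077 with free RNA subtracted.

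The WT span over classes, 5.34-fold, was 11.3 under median-of-ratios scaling, 5.68 without mt- genes in the denominator, 5.12 with equal weights, 5.16 thinned, 5.21 at 300 genes, 5.41 at 1000 genes, 5.44 at 10% mt-, 5.15 with doublets and 5.58 with free RNA subtracted. The il26KO span, 5.88-fold, was 9.36 under median-of-ratios scaling, 6.19 without mt- genes in the denominator, 5.81 with equal weights, 5.94 thinned, 5.97 at 1000 genes, 6.03 at 10% mt-, 5.48 with doublets, 5.94 merged and 6.18 with free RNA subtracted. Median-of-ratios scaling left 2 members at least 1.5-fold higher in place of 4, and thinning or equal weights left 1 lower in place of 2.

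Some class values changed sign. For the mt- sum, enteroendocrine-like cells became 0.15 (equal weights), 0.19 (thinned), 0.39 (300 genes), 0.11 (no mitochondrial filter) and 0.10 (doublets kept), and epidermal-like cells 0.039 (thinned) and 0.081 (no mitochondrial filter). Progenitor-like cells became -0.046 (equal weights) and -0.0066 (thinned), ileal enterocyte-like cells 0.090 (10% mt-), leukocyte-like cells 0.029 (thinned) and mesenchymal-like cells -0.031 (median-of-ratios). Duct-like cells became -0.10 (median-of-ratios), -0.019 (without the 50 genes), -0.45 (equal weights) and -0.40 (thinned). For the nuclear sum, goblet-like cells became -0.076 (median-of-ratios), -0.059 (equal weights), -0.090 (thinned) and -0.12 (merged), mesenchymal-like cells -0.034 and neuron-like cells 0.23 (both median-of-ratios), neuron-like cells 0.023 (300 genes), enteroendocrine-like cells 0.047 (no mitochondrial filter) and progenitor-like cells 0.069 (doublets kept). The cause was not tested. The ndufb2 ratio, whose alternatives were chosen after seeing the data, lay between -2.01 and -1.83. Depth limits members with few UMIs, such as ndufa4l2b and cox5b2.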
